A study of Mus musculus with 4 samples.

Results

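The loci described here are those of Jarid2, Kdm5b, Kat6b and Crebbp, 4 genes that encode regulators of histones. They were taken from a map of where the RNA methyltransferase METTL3 lies along the genome in mouse embryonic stem cells, made by chromatin immunoprecipitation and sequencing (ChIP-seq). A peak belonged to a locus where its centre lay within 100 kb of the gene body. By this rule 12 of the 634 rows in both peak lists were members, 7 of 353 in replicate 1 and 5 of 281 in replicate 2. They marked 7 places, called sites here, of which 5 were listed in both replicates. The genes were picked because peaks lay near them, so the numbers and heights below are a description without a test.

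The series mapped where METTL3 lies along the genome in these cells. It held 2 immunoprecipitations (IP) with a rabbit antibody to METTL3 and 2 inputs, which are sonicated chromatin that saw no antibody. All 4 libraries came from cells of strain C57BL/6, marked wild type and grown with LIF, the GSK3 inhibitor CHIR99021 and the MEK inhibitor PD0325901, a medium that holds the cells in the naive state. The IP libraries held 22246555 and 21793898 tags, and the inputs about 24800000 and 14900000. Nothing in the labels says that the replicates were separate cultures, so their spread may be technical. Neither cells without METTL3 nor a control antibody was analysed here. The lists hold no expression values, and the cell type could not be checked against its markers.

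METTL3 is the catalytic subunit of the complex that writes N6-methyladenosine on nascent RNA, and it works as a dimer with METTL14. Histone regulators act on the chromatin from which that RNA is copied. JARID2 is a subunit of Polycomb repressive complex 2, which methylates histone H3 at silenced developmental genes, and it helps to bring the complex to its targets in embryonic stem cells. It belongs to the Jumonji family but has lost the demethylase activity. KDM5B is an active member of that family and removes methyl groups from lysine 4 of histone H3. KAT6B is a histone H3 acetyltransferase of the MYST family that works in a complex with a BRPF scaffold protein. CREBBP, also called CBP, is a histone acetyltransferase and coactivator found at enhancers.

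At 3 of the 4 genes the peaks lay upstream of the gene in both replicates, between 8.31 and 25.3 kb from its start, and none lay inside a gene body of the 4. Kat6b had 3 sites, Jarid2 had 2 and Kdm5b and Crebbp had 1 each. All 3 sites of Kat6b, the site of Kdm5b and the nearer site of Jarid2 were shared, which means that the peaks of both lists overlapped by at least 1 bp. The farther site of Jarid2 and that of Crebbp were listed in replicate 1 alone. Shared peaks were thus 5 of 7 in replicate 1 and 5 of 5 in replicate 2, beside 55.2% and 69.4% of the whole lists. The Crebbp site differed in position too, at 49.8 kb beyond the end of the gene. Of all 21883 protein-coding genes, 4.16% had a peak of replicate 1 within 100 kb, 3.24% had one of replicate 2 and 2.25% had a shared one. The rule selected on these peaks, so nothing is read from the comparison. The 4 genes are also long, from 72.7 to 191 kb against a median of 17.2 kb, so their windows were wider than that of most genes.

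No other peak of either list lay near the window's edge. The members farthest inside the limit were at 25.3 kb for Jarid2, 25.0 kb for Kdm5b, 24.5 kb for Kat6b and 49.8 kb for Crebbp. Between 100 and 500 kb from the 4 genes there was no peak in either list. The nearest ones outside lay 834 kb from Crebbp, 1220 kb from Kdm5b, 1508 kb from Kat6b and 5207 kb from Jarid2, with heights of 6.29, 6.74 and 9.64, 8.26, and 14.4 and 11.0 normalised tags. Those of Kdm5b and Jarid2 were shared peaks and have the height in each replicate.

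**Figure D1:**
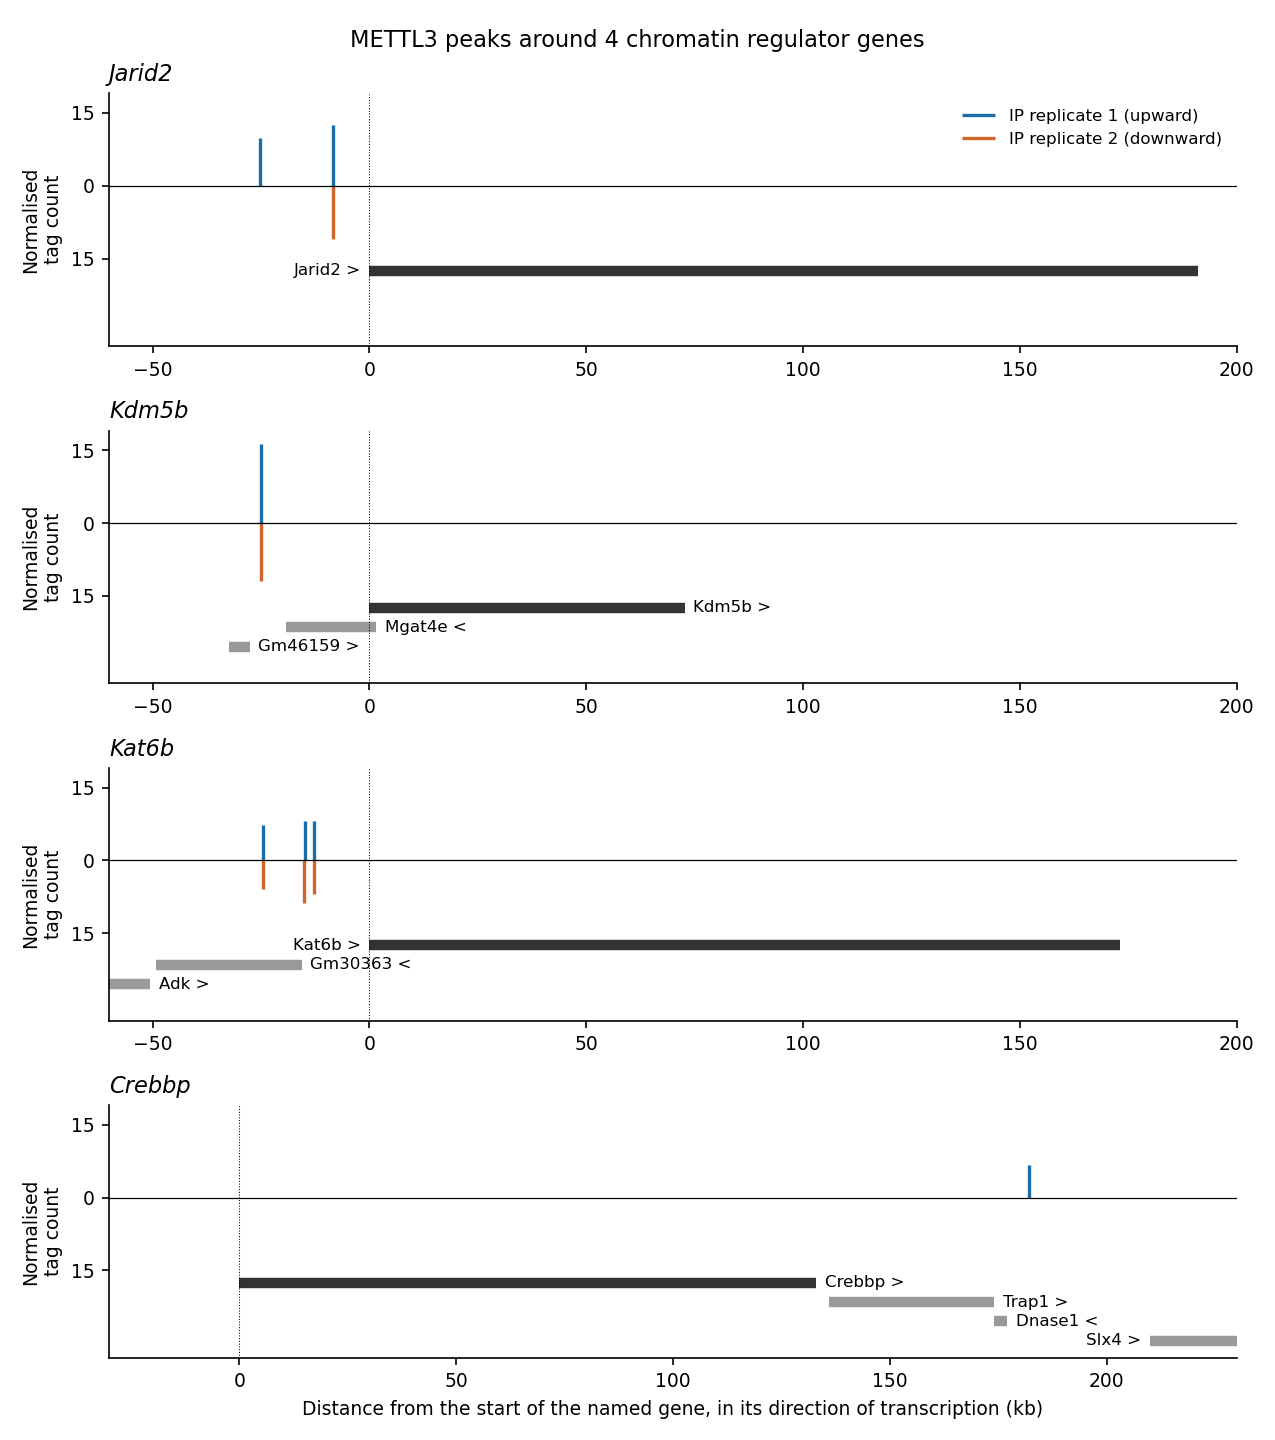
Peaks around each gene, plotted by distance in kb from the start of the named gene along its direction of transcription, with height in IP tags per 10000000. Blue lines rise for IP replicate 1 and orange lines fall for IP replicate 2, bars below show genes and arrowheads their direction relative to the named gene. At Jarid2, Kdm5b and Kat6b every line stands to the left of the start, while the single line at Crebbp stands 182 kb to the right of it.

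The starts from which these distances run are shown for Jarid2 and Kdm5b, the genes of this set whose outermost start is in the RefSeq promoter table of build GRCm38.p6. The third sequence is that of Gm30363, a long non-coding RNA gene beside Kat6b whose start was closer to a peak than any other start. Each line holds the 250 bases before the start on the strand of the gene, and capitals mark GGGCGG or its complement CCGCCC, the GC box bound by SP1-type factors. Positions are chr13:44730524-44730773 (plus strand), chr1:134559928-134560177 (plus strand) and chr14:21483621-21483870 (minus strand).
Jarid2: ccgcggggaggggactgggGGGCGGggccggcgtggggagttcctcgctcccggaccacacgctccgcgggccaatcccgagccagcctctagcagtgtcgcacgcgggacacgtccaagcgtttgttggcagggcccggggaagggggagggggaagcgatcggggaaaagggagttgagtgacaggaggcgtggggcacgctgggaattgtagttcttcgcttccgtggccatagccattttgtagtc
Kdm5b: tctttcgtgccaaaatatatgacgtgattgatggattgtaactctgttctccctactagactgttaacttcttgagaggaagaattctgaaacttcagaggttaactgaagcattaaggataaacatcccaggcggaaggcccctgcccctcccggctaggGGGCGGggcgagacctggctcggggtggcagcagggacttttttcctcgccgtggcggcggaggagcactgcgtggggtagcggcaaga
Gm30363: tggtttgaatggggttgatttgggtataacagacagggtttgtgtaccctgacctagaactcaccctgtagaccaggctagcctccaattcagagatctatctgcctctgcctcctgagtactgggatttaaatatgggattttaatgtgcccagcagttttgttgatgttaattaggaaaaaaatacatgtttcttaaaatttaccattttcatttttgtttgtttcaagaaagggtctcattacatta

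The sequences differ in base composition. That of Jarid2 is 67.2% G or C with 23 CG pairs, that of Kdm5b 54.4% with 13, and that of Gm30363 38.0% with 0. Over 21262 such windows of protein-coding genes the medians were 55.6% and 10 pairs. A GC box on either strand was present once each at Jarid2 and Kdm5b and in 42.6% of those windows. None of the 12 member peaks overlapped a promoter window of any gene in the table, which reaches from 250 bases before to 50 after a start. Such overlaps were few in the lists as a whole, at 6 of 353 peaks (1.70%) in replicate 1 and 3 of 281 (1.07%) in replicate 2.

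Jarid2, the gene of the Polycomb subunit, lies on chromosome 13 (mm10, 44730774 to 44921643, plus strand). The nearer site stood 8.31 kb upstream of its start, at 44722383 to 44722553 in replicate 1 and 44722367 to 44722535 in replicate 2, with centres 17 bp apart. Its height, the authors' count of IP tags scaled to a library of 10000000, was 12.6 and 11.0 in replicates 1 and 2, with a mean of 11.8 ± 1.13 (SD, n = 2). Input on the same scale was 2.42 and 0. Both IP values stood above both input values, but the caller required each listed peak to exceed its own input.

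In tags, this site had 28 in IP and 6 in input in replicate 1. IP was 5.20-fold above input there, each relative to its library total, with an exact 95% interval of 2.11 to 15.4 that covers counting error only, as do all intervals here. Replicate 2 had 24 IP tags, and input was empty. Set against a floor of 3 input tags per library, which ignores the counting error of IP, the signal was 5.46-fold higher. The exact interval began lower, at 4.10. The height of replicate 2 was 0.875 times that of replicate 1, with an interval of 0.485 to 1.57 that includes 1.

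The farther site of Jarid2 (44705400 to 44705570) lay 25.3 kb upstream and 17.0 kb from the nearer one. It measured 9.89 in IP and 2.02 in input in replicate 1, from 22 and 5 tags, a fold of 4.91 (95% interval 1.81 to 16.6). Replicate 2 did not list it, and its level there is not in the lists. Of the 120 peaks of replicate 1 at least that tall, 106 (88.3%) were shared. That share pools taller peaks, up to 44.1, and this site stood at the low end of them. Among the peaks of its own height, 9.89, some others were also not shared, so nothing is read from its absence in replicate 2. Jarid2 was the nearest protein-coding gene to both sites. The next, Dtnbp1, lay 200 and 217 kb away, on the far side of Jarid2.

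Kdm5b, the demethylase gene, lies on chromosome 1 (134560178 to 134632878, plus strand). Its site stood 25.0 kb upstream of the start in replicate 1 (134535135 to 134535305) and 24.9 kb in replicate 2 (134535150 to 134535318). Its heights were 16.2 and 11.9, with a mean of 14.1 ± 3.04 (SD, n = 2), the tallest of the 7 sites in both replicates. Input was low, at 0.806 and 1.35.

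IP tags at the Kdm5b site numbered 36 and 26, against 2 input tags in each replicate. Replicate 1 thus stood 20.1-fold above input (95% interval 5.17 to 172), and replicate 2 stood 8.87-fold above it (2.22 to 77.1). The intervals overlapped widely, since each rests on 2 input tags. The ratio of heights, replicate 2 to replicate 1, was 0.737, and its interval of 0.427 to 1.26 includes 1.

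Kdm5b was not the gene closest to this site. Mgat4e, named for a glycosyltransferase family, lay 5.72 kb away and runs toward the site from the opposite strand, with its own start inside Kdm5b. The gene of the long non-coding RNA Gm46159 ended 2.61 kb away on the other side. Kdm5b came second among protein-coding genes, and the next was Rabif, which encodes a RAB-interacting factor, at 27.3 kb.

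Kat6b, the acetyltransferase gene, lies on chromosome 14 (21499216 to 21672478, plus strand). It had the only group, defined as a run of sites with each centre within 10 kb of the next. From far to near, the 3 sites stood 24.5, 14.9 and 12.8 kb upstream of the start. Their centres were 9.55 and 2.09 kb apart, and the group spanned 11.6 kb. All 3 were found again in replicate 2, with centres shifted by 14, 32 and 10 bp.

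No peak of this group stood above the median of its list, 8.09 in replicate 1 and 8.72 in replicate 2. The farthest site (21474656 to 21474826) measured 7.19 and 5.96 in replicates 1 and 2, with a mean of 6.58 ± 0.870 (SD, n = 2), against 1.61 and 0 in input. The middle site (21484204 to 21484374) measured 8.09 and 8.72, or 8.41 ± 0.445, against 1.61 and 1.35. The nearest site (21486293 to 21486463) measured 8.09 and 6.88, or 7.48 ± 0.856, against 0.806 and 0. At each site both IP values exceeded both input values, though the caller required this of each peak against its own input. The farthest site was lower than the middle one in both replicates, on 29 against 37 IP tags in all.

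Few tags lay behind each of these peaks. IP tags were 16, 18 and 18 in replicate 1 and 13, 19 and 15 in replicate 2, from far to near. The folds over input in replicate 1 were 4.46 (95% interval 1.44 to 18.3), 5.02 (1.65 to 20.4) and 10.0 (2.40 to 89.2). In replicate 2 the middle site was 6.48-fold above input (1.56 to 57.4). The other 2 had no input tag there. Against the floor of 3 input tags they were 2.96-fold and 3.41-fold higher, and their exact intervals began lower, at 2.08 and 2.45. Summed over the group, IP was 5.80-fold above input in replicate 1 (52 against 10 tags, 2.92 to 12.8) and 16.0-fold in replicate 2 (47 against 2 tags, 4.20 to 136). With a findPeaks score of at least 20 required, only the middle peak of replicate 2 was left of the group, and none of its sites was shared.

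The group sat at the start of Gm30363, which is transcribed away from Kat6b on the minus strand (21449949 to 21483620). The middle site lay 0.669 kb before that start, beyond the 250 bases printed above, and the nearest site 2.76 kb before it. The farthest site lay inside Gm30363, 8.88 kb from its start. Kat6b was the closest protein-coding gene to all 3, and Adk, which encodes adenosine kinase and ends upstream of Kat6b, came next at 26.2 to 37.8 kb. Adk therefore counts the same 3 peaks within 100 kb. Over all protein-coding genes, 8 (0.0366%) had at least 3 shared peaks within that distance. Besides Kat6b and Adk these were Klf4 and Rad23b, Plekhf2, and Mettl14, Prss12 and Sec24d. Among the 195 shared sites of the series, grouping by the same 10 kb gave 2 groups of 3 and 4 pairs, and the other 181 stood alone.

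Crebbp, the CBP gene, lies on chromosome 16 (4081334 to 4213957, minus strand). Its single site (4031477 to 4031647) was 182 kb from the start, past the end of the gene. It was listed in replicate 1 alone, at 6.74 in IP and 1.61 in input, from 15 and 4 tags, a fold of 4.18 (95% interval 1.33 to 17.3). This was the lowest height and the lowest fold of the 7 member peaks of replicate 1. Its findPeaks score was 16.0, so a fold of at least 8 or a score of at least 20 would leave Crebbp without a peak. Of the 261 peaks at least that tall in that list, 67.8% were shared. The set reaches up to 44.1, and the Crebbp peak was at its low end. Of the peaks at its own height, 6.74, some were shared and others were not.

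Crebbp was only the fourth protein-coding gene by distance from this site. Dnase1, which encodes a secreted nuclease, lay 5.40 kb away, Trap1, the gene of a mitochondrial HSP90 chaperone, 8.41 kb, and Slx4, which encodes a nuclease scaffold, 27.7 kb. The peak lay between Dnase1 and Slx4, and Trap1 and Dnase1 separated it from Crebbp. By its neighbours it is a peak of the Dnase1 region that falls within the distance limit of Crebbp.

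**Figure D2:**
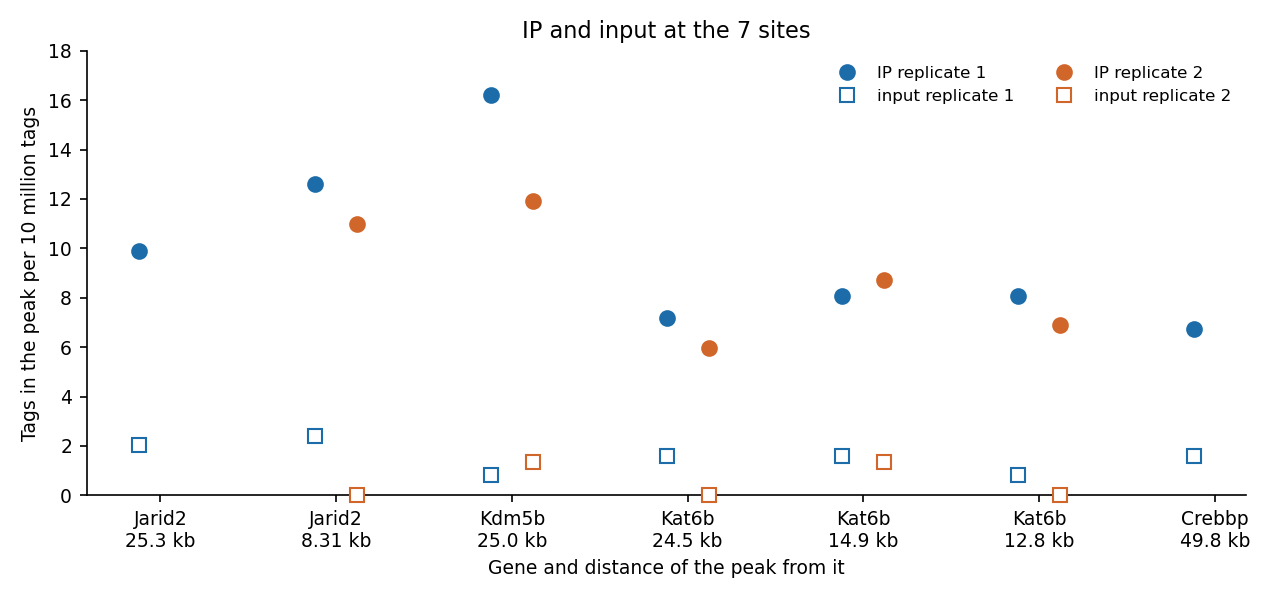
Tags in the peak per 10000000 tags at each of the 7 sites, labelled by gene and distance from it, with filled circles for IP and open squares for input, blue for replicate 1 and orange for replicate 2. IP values run from 5.96 to 16.2 and input values from 0 to 2.42, and the sites without orange symbols, Jarid2 at 25.3 kb and Crebbp, were not listed in replicate 2.

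Over the 5 shared sites together, IP exceeded input 7.19-fold in replicate 1 (116 against 18 tags, 95% interval 4.35 to 12.6) and 16.5-fold in replicate 2 (97 against 4 tags, 6.26 to 61.9). The same sum over all 195 shared sites of the series was 10.7-fold in both replicates. The intervals of both replicates overlapped, and that of replicate 2 was the wider because it rests on 4 input tags from the shallower input. No member peak of replicate 1 lacked an input tag, and 3 of the 5 in replicate 2 did, against 6.52% and 22.1% of the whole lists. The caller required an excess over input for every listed peak, so no test of IP against input is given.

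**Figure D3:**
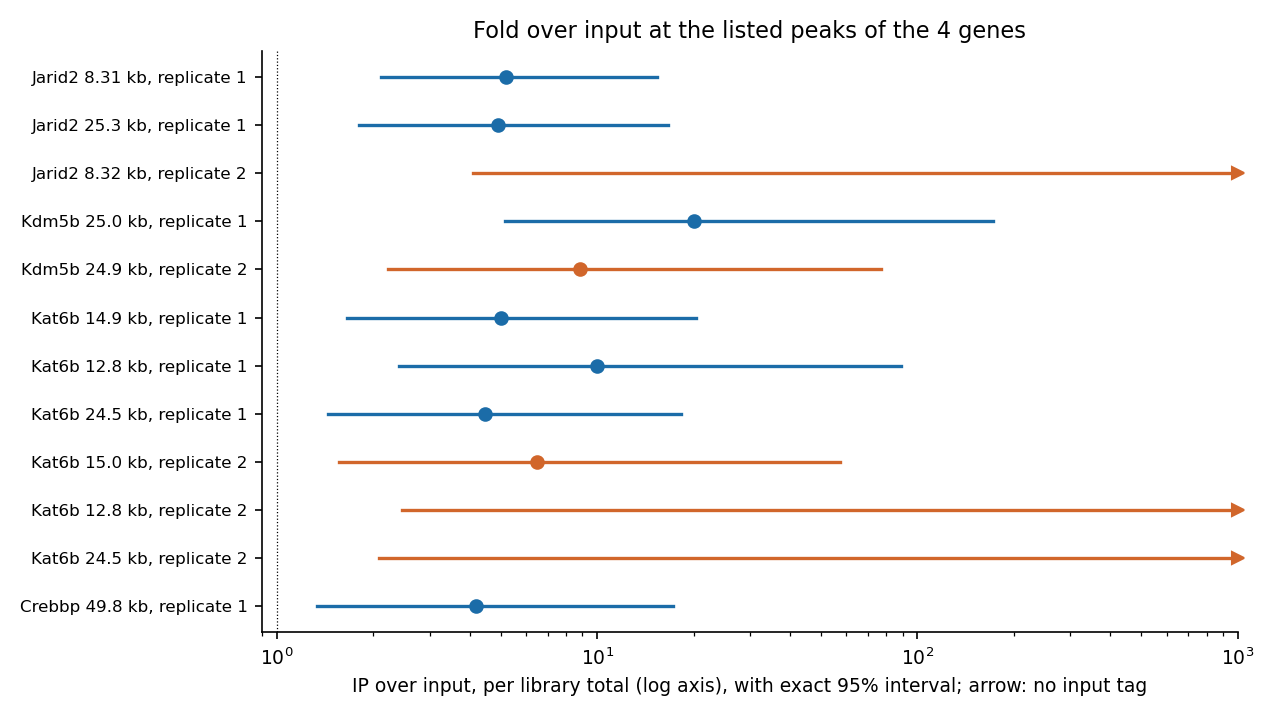
IP over input per library total on a log axis for the 12 member peaks, labelled by gene, distance and replicate. Points are folds and lines exact 95% intervals, and an arrow without a point marks a peak with no input tag. The lowest interval begins at 1.33, for Crebbp, and the highest point is that of Kdm5b in replicate 1 at 20.1.

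Among the shared sites the tallest in both replicates was that of Kdm5b, followed by the nearer Jarid2 site and then by the 3 of Kat6b. The Kdm5b and nearer Jarid2 sites had means of 14.1 ± 3.04 and 11.8 ± 1.13 (SD, n = 2). Kdm5b was the higher in both replicates, but the difference was not tested, and 2 replicates could not settle it. Both replicates of Jarid2, at 12.6 and 11.0, stood above all 6 values of the Kat6b group, of which the highest was 8.72. Within their lists, Kdm5b ranked 35 of 353 and 73 of 281, and Jarid2 67 and 83. The farthest Kat6b site ranked 208 and 264, close to the end of the second list, where the lowest peak measured 5.51. The median over all peaks was 8.09 in replicate 1 and 8.72 in replicate 2, values that the middle Kat6b site met in both lists.

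**Figure D4:**
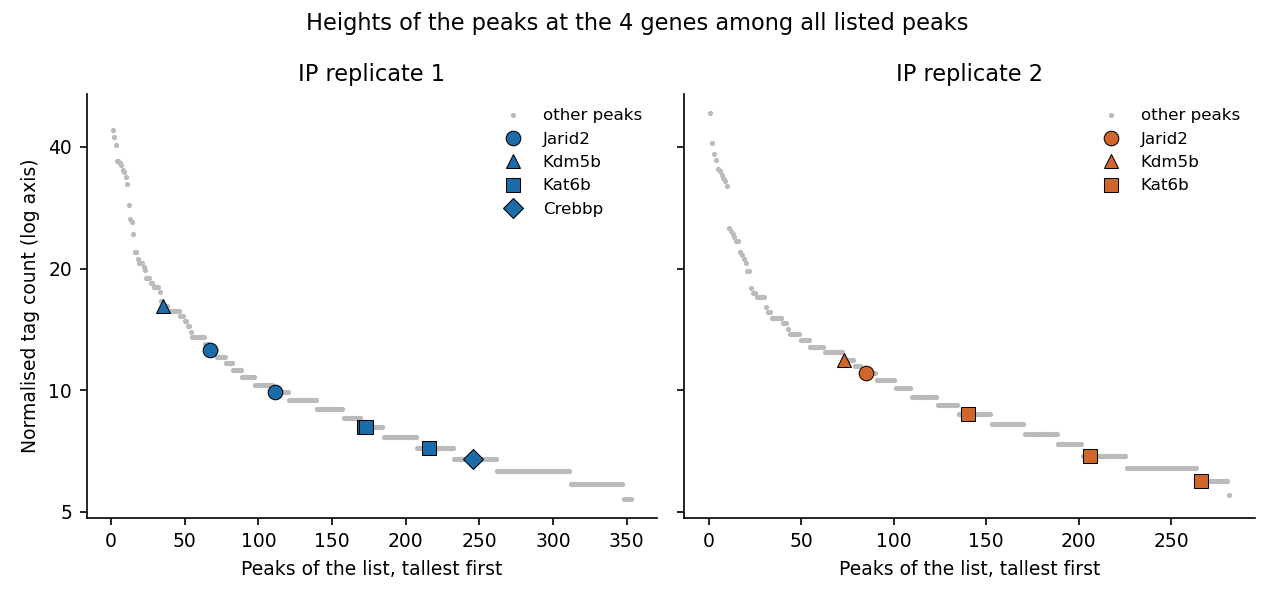
Height of every listed peak in normalised tags on a log axis, tallest first, for IP replicate 1 (left, 353 peaks) and IP replicate 2 (right, 281 peaks), with member peaks drawn as large symbols by gene. Kdm5b and Jarid2 lie in the upper part of both lists, at 16.2 and 12.6 and at 11.9 and 11.0, and the Kat6b squares lie at or below 8.72.

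At the shared sites, the rise over the local surroundings put the 3 genes in the same order as height. Fold over input did not do so in replicate 1, where it was 5.20 at Jarid2 and 5.80 summed over the Kat6b group. The caller's fold over the surrounding 10 kb, the authors' own value, was 20.3 and 15.2 at Kdm5b, 15.5 and 12.0 at the nearer Jarid2 site and from 5.66 to 7.60 at the 3 Kat6b sites. The farther Jarid2 peak, listed in replicate 1 alone, had 9.44. The median of this local fold was 9.03 and 10.4 over the whole lists. Neighbouring Kat6b sites, 2.09 kb apart at the closest, could fall within each other's surroundings, and the effect of this was not tested. The deposited focus ratio, the fraction of tags on the expected strand side of the centre, was 0.917 and 0.882 at Kdm5b and lay between 0.738 and 0.857 at the other member peaks, against medians of 0.815 and 0.818. Both quantities come from the same tags as the heights and are not independent of them.

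Each of the 5 sites found in both lists stood upstream of the gene that it was assigned to by the distance rule. Relative to the nearest protein-coding gene 4 of the 5 were upstream, since the Kdm5b site lies past the end of Mgat4e. In the whole lists, peaks outside protein-coding genes and within 100 kb of the nearest one were upstream of it in 81 of 144 cases in replicate 1 (56.2%, exact 95% interval 47.7 to 64.5%) and 63 of 109 in replicate 2 (57.8%, 48.0 to 67.2%). The 5 sites belong to 3 loci, and no test of this difference was made. None of the 12 member peaks lay inside a protein-coding gene, where 40.8% and 42.0% of all peaks lay.

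The other genes of histone and chromatin regulation were looked up in a list of 118, which holds the 4 genes above. Shared peaks within 100 kb were found at 8 of them (6.78%), and at 5 of 114 (4.39%) without the 4, beside 2.25% of all protein-coding genes. In replicate 1 there were 12 genes (10.2%) and in replicate 2 also 12, beside 4.16% and 3.24%. A peak of either list was found at 16 (13.6%), beside 5.05%. Genes of the list were longer than most, with a median of 42.8 kb against 17.2 kb, which widens their windows. The list was drawn up with earlier results of these data known and holds genes chosen for their peaks, so these counts are a description and do not set the list apart. The counts per gene family below are small and are to be set beside the same shares, and nothing is read from them.

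Among the partners of KAT6B, Brd1 had a shared peak inside the gene. Brd1 encodes BRPF2, a scaffold of MYST acetyltransferase complexes. The peak (chromosome 15, 88708999 to 88709169 in replicate 1) lay 25.1 kb from the start of this 47.2 kb gene and measured 10.8 and 12.8, or 11.8 ± 1.41 (SD, n = 2). Replicate 1 was 3.35-fold above input (24 against 8 tags, 95% interval 1.45 to 8.61), and replicate 2 was 6.37-fold above it (28 against 3 tags, 1.97 to 32.7). Of the 11 genes of that family and its partners, Kat6b and Brd1 had a shared peak, and Meaf6, a small subunit gene, had one in replicate 2 alone, 19.9 kb past its end and closer to Zc3h12a (6.42, 14 tags).

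In the Polycomb groups, 1 of 12 genes of repressive complex 2 had a shared peak, and it was Jarid2. Aebp2, another accessory subunit, had a pair of peaks in replicate 1 alone, 16.5 and 19.1 kb upstream, of 8.09 and 11.2 normalised tags, both closer to Plekha5. Rbbp7, which encodes a histone-binding subunit, had a peak of 10.3 in replicate 1 alone at 53.2 kb, closer to Txlng, with no input tag. Of 17 genes of repressive complex 1, Rybp had a shared peak 90.9 kb upstream, at 16.2 and 9.64 normalised tags, and was the nearest protein-coding gene to it.

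Enzymes that methylate histones had a shared peak at 2 of 22 genes. That of Setd1b, a lysine 4 methyltransferase whose product adds the mark that KDM5B removes, lay inside the gene (chromosome 5, 123158086 to 123158256), 10.5 kb from its start. It measured 11.7 and 13.3, or 12.5 ± 1.13 (SD, n = 2), and was 4.14-fold above input in replicate 1 (1.75 to 11.3) and 19.8-fold in replicate 2 (29 against 1 tag, 3.28 to 808). Kmt5b, which encodes a methyltransferase for lysine 20 of histone H4, had one 24.4 kb past its end, at 7.64 and 11.0, that was closer to Chka. Kmt2c and Kmt2e had peaks of 1 list each, of 6.74 in replicate 1 and 6.88 in replicate 2. That of Kmt2c lay 56.0 kb upstream and was closer to Cct8l1 (36.9 kb), while Kmt2e was the nearest protein-coding gene to its own (31.4 kb).

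Of the demethylases, Kdm5b had the only shared peak among 6 that act on lysine 4, and among 13 others Kdm4b had a peak of 6.88 in replicate 2 alone, which lay inside Arrdc5. None of the 13 deacetylase genes had a peak of either list, beside 5.05% of all protein-coding genes, so nothing is read from this. Of 18 remodeller genes, Chd8 had a shared peak at 39.6 kb that lay inside Mettl3 (13.5 and 11.5). Replicate 2 alone listed another peak inside Mettl3, 42.0 kb from Chd8, of 6.42 from 14 IP tags and no input tag. Chd2 had a peak inside the gene in replicate 2 alone, of 8.72 from 19 IP tags and 1 input tag. Among the 6 acetyltransferase genes of the CBP and GCN5 type, Crebbp included, no shared peak was found.

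**Figure D5:**
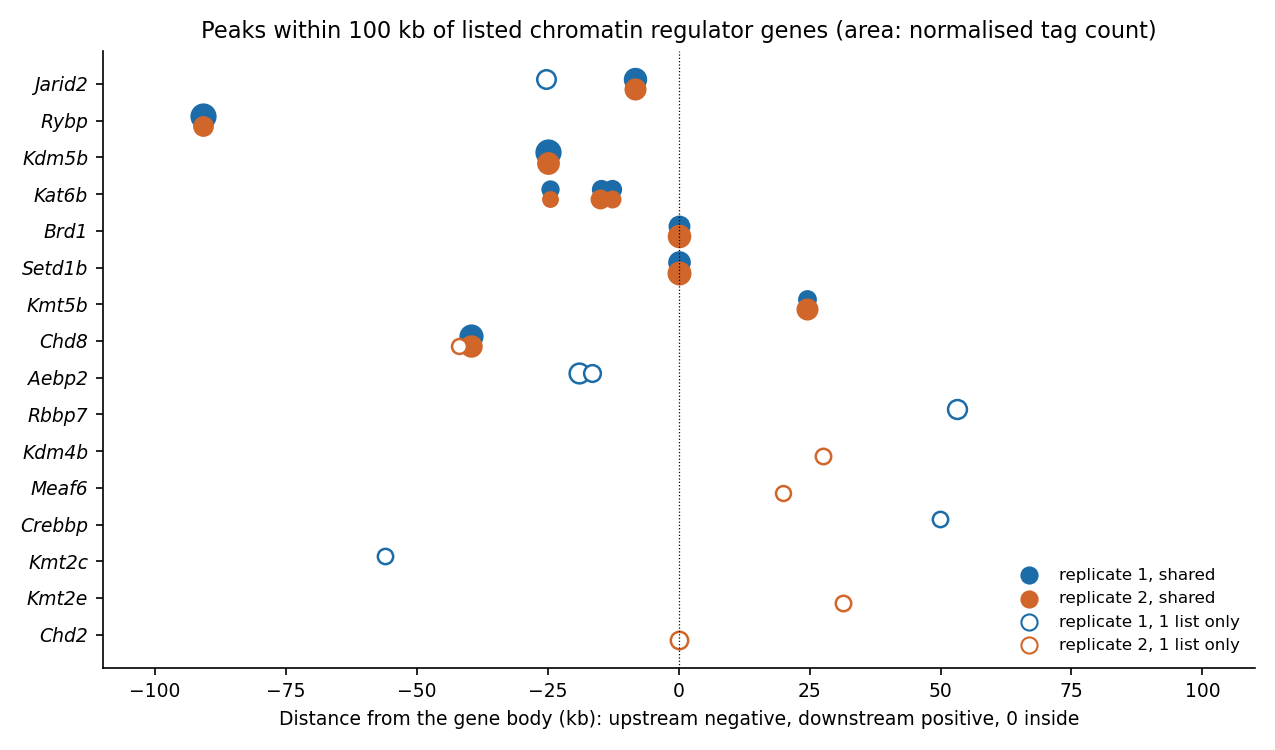
Peaks within 100 kb of the 16 listed chromatin regulator genes that had any, by distance from the gene body in kb (upstream negative, downstream positive, 0 inside), with symbol area in proportion to the normalised tag count. Filled symbols are shared peaks and open symbols peaks of 1 list, blue for replicate 1 and orange for replicate 2. Shared symbols inside a gene are seen at Brd1 and Setd1b, and Kat6b is the only row with 3 shared sites.

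Genes with the most similar pattern were those with the same number of shared peaks within 100 kb and the closest mean height of the tallest. Over 472 candidates with 1 shared peak, those closest to Jarid2 (11.8) were Klf9 and Trpm3, which share a peak of 11.8, and Alg12, whose peak of 11.8 is the one inside Brd1. Closest to Kdm5b (14.1), over 469 candidates, were Glis3 (14.1), Asic2 (14.2) and Tars (13.8). For Kat6b, 6 candidates had 3 shared peaks, and the closest were Rad23b and Klf4, which count the same peaks, the tallest at 12.5, and Mettl14 at 12.9. All 3 exceeded the tallest Kat6b site, 8.41 ± 0.445 (SD, n = 2). Likeness was measured over 2 replicates and by height and number alone.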

How the data were processed

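The deposited peak lists were made by the authors with HOMER findPeaks in factor style, per the file headers, separately for each IP against the input of the same number, at a false discovery rate of 0.001 (given as a threshold of 14 tags), a Poisson p-value of 0.0001 and a fold ratio of 1 over input and over 10 kb. Trimmomatic 0.38, Bowtie 1.2.2, CASAVA and build mm10 are named in the submitters' processing notes, without settings. Height, the authors' normalised tag count, is a signal of IP tags per 10000000. Per the file headers, total tags are a count in replicate 1 but a signal scaled to input in replicate 2. The findPeaks score, the fold ratio, the focus ratio (a fraction) and the p-values are the authors' deposited values.

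Whole tags were recovered by dividing by the value of a single tag; they lay within 0.10 of a whole number for IP and 0.055 for input. Heights thus rest on 12 tags at the least, and a median of 18 and 19. The lowest findPeaks score was 14 in both lists, while 42 and 18 peaks had fewer than 14 tags by height. Distances ran from peak centres to gene bodies of RefSeq GRCm38.p6, and all 118 listed genes matched it. Strand came from the promoter table. Folds carry exact conditional binomial intervals (Python 3.11.15, SciPy 1.17.1), and the functions were tested on simulated data. Members and lists were chosen with earlier results of these data known. Named genes were the 4 members, the neighbours of their peaks, listed genes with a shared peak within 100 kb or a peak inside, and the 3 most alike; listed genes with a peak of 1 list outside the gene, and genes with 3 shared peaks, were named after their values were seen. The sequence under the peaks was not analysed here.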

Additional observations from a re-analysis of the deposited data

How the results depend on the processing

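Distance limits of 50 and 200 kb left the 12 peaks and 5 shared sites of the 4 genes as they were, as did both other definitions of sharing (overlap of 50% of the shorter peak, or centres within 500 bp) for the shared sites. A fold of at least 8 in the caller's column, where an empty input counts as 0.50 tags, left 6 peaks and 2 shared sites, 1 each at Kdm5b and Kat6b, and 2 of the listed chromatin regulator genes with a shared peak in place of 8. Of these 6 peaks, 3 had no input tag, 1 of them in the Kat6b site. With empty inputs at the floor of 3 tags, an alternative chosen after seeing the data, 3 peaks and 1 shared site, that of Kdm5b, were left, and 9 listed genes had a peak and 1 had a shared one. A score of at least 20 also left 6 peaks and 2 shared sites, at Kdm5b and Jarid2, and of the Kat6b group only the middle peak of replicate 2. The Crebbp peak was lost at either fold setting and at that score, and both Jarid2 peaks of replicate 1 at either fold setting. With a gap of 5 kb the Kat6b group became a pair and a single site. With a gap of 25 kb there were 2 groups, the second being the Jarid2 pair. With each replicate left out in turn, 5 to 7 peaks remained, the sites without replicate 2 numbering 7. The fold over input of the 5 shared sites, 9.72 with both replicates averaged, ranged from 7.19 to 16.5 in single replicates. With 1 tag added to each count it was 6.60. The caller's own column gave 11.5 by a different summary, the median over peaks averaged over the replicates. That column holds 3 folds over empty inputs. Few input tags limit every fold. No paired analysis was possible because no result here comes from a test between groups, although each fold was formed from the IP and the input of the same number.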
